A study of Mus musculus with 6 samples.

Results

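The enzymes of the citric acid cycle were described here together with the enzymes that feed it, drain it and shuttle its reducing power between cytosol and mitochondrion. The 33 genes were taken from a list and found on the arrays through the RefSeq accession of each probe. All 33 had a probe, among 20128 genes with a symbol and a probe, and all 33 passed the filter on dim signal, among 20020 genes and unnamed features tested. RNA from whole hearts was hybridised to 1-colour Agilent mouse arrays, 1 array per heart. Per the labels, 3 control hearts came from C57/B6 mice aged 8 weeks with both PHD genes flanked by loxP sites but without Cre (PHD2/3f/f; Cre-/-). The other 3 hearts came from mice of the same strain and age with the same floxed alleles and 1 copy of Cre (PHD2/3f/f; Cre+/-), and are called KO-labelled below. The labels call the replicates biological and name neither the promoter that drives Cre nor any inducer, so the cells that lost the genes are not given.

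PHD2 and PHD3 are prolyl hydroxylases that use oxygen and 2-oxoglutarate, an intermediate of the citric acid cycle, and release succinate, another intermediate. They mark the hypoxia-inducible factors for destruction when oxygen is present. The cycle oxidises acetyl-CoA from fatty acids and pyruvate in the mitochondrial matrix and passes the electrons to the respiratory chain, and the heart, which beats without rest, depends on it for most of its ATP. Anaplerotic enzymes refill the cycle when intermediates leave it, and the malate-aspartate shuttle carries reducing equivalents from cytosolic NADH into the matrix.

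Of the 33 genes, 27 fell in KO-labelled hearts, 1 rose and 5 did not pass an adjusted p of 0.05 in limma's moderated test. Across all genes and features tested, 39.1% passed, 23.0% lower and 16.1% higher. Of these calls 41.1% were higher, a share that became 55.3% with cyclic loess and 60.4% with arrays scaled on spike-in probes. The fallen genes were lower by 1.46-fold to 10.2-fold, with a median of 2.29-fold, and 24 of the 33 fell by at least 2-fold, which 8.42% of all genes and features did. The median log2 difference of the 33 genes was -1.17, where that of all genes and features was -0.11. With quantile scaling, cyclic loess and spike-in scaling the median of the 33 genes was -0.98, -0.97 and -0.92. Fewer of them fell by at least 2-fold under these scalings, so that count depends on the scaling. Every control heart lay above every KO-labelled heart for 29 of the 33 genes and below for 1, a separation found in 33.1% and 22.7% of all genes and features. These genes are mostly bright on the arrays: 25 lay among the brightest 5005 features by mean signal, and 22 of those 25 fell, where 29.7% of the 5005 passed lower and 12.5% higher.

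**Figure D1:**
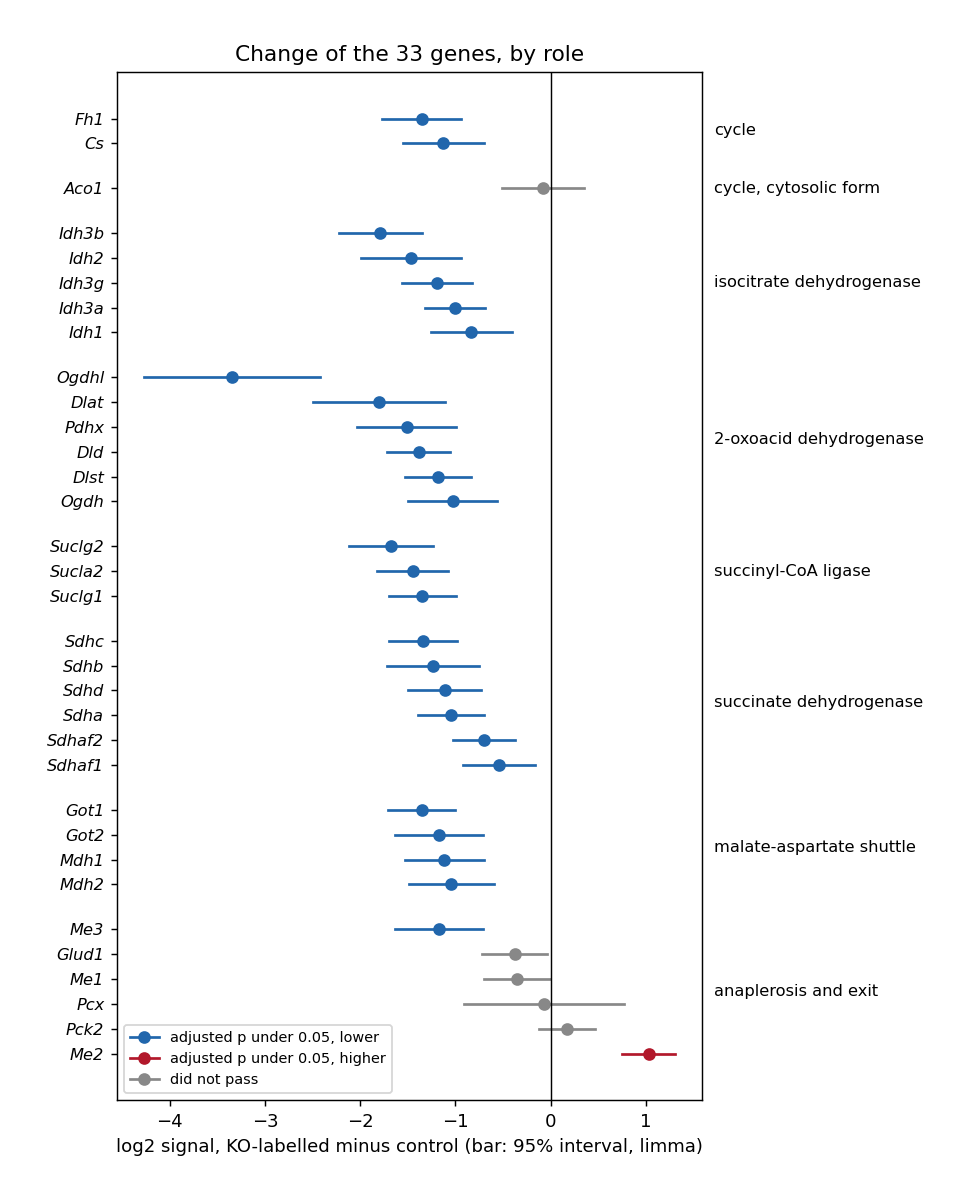
Difference in log2 signal between KO-labelled and control hearts (horizontal axis) for each of the 33 genes, grouped by role, with dots for the difference and bars for its 95% interval. All genes of the dehydrogenases, the ligase and the shuttle lie left of 0, and the genes of anaplerosis and exit spread from -1.17 for Me3 to 1.03 for Me2.

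Of the targeted genes, Egln1, which encodes PHD2, fell 2.35-fold (log2 difference -1.23 ± 0.21 SE, adjusted p = 0.00653), while Egln3, which encodes PHD3 and is itself a target of the hypoxia-inducible factors, rose 3.93-fold (1.98 ± 0.17 SE, adjusted p = 0.00166). The direction of Egln3 is therefore opposite to that of a deletion. The position of either probe against the deleted exons was not analysed here. All 6 arrays shared 1 slide and 1 scan, with control arrays in a different column of the slide from KO-labelled arrays, so that slide column and group cannot be told apart. Between 46.3% and 51.0% of an array's probes were well above background, and the signal at the 75th percentile ran from 147 to 235. Only 6 arrays were run, and their number limits the precision of all values. Of the defining cardiomyocyte markers, 8 of 9 fell, with a median log2 difference of -0.73, and Nkx2-5 did not pass (0.053). The summed signal of the 9 was 8700 to 11930 in control and 5626 to 7000 in KO-labelled hearts, relative to a 75th percentile of 1. Of 8 fibroblast markers 6 rose, while Pdgfra (0.335) and Dcn (-0.23) did not pass. The summed signal of the 8 was 409.9 to 757 in control and 1042 to 1174 in KO-labelled hearts. The summed signal of 6 macrophage markers was 65.8 to 104 and 124.0 to 200.3, with 3 of them higher and 1 lower. Of the 7 endothelial markers 0 passed in limma, with 2 at an unadjusted p under 0.05 and lower (Pecam1 -0.53 and Tek -0.69). The summed signal of the 7 was 186 to 261 and 130.1 to 274. Fewer cells of a type and less RNA per cell cannot be told apart in whole tissue, and the part of the cell mixture in the values below was not tested.

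The start regions of these genes are shown first as a description, and a link between their letters and the changes was not tested. RefSeq's promoter table (GRCm38.p6) held windows of 250 bases before to 50 bases after the start for 30 of the 33 genes, and none for Idh3a, Sdhc and Me2. Both strands were searched for 5 short motifs linked to factors of mitochondrial or hypoxic gene control. The nuclear receptor half-site with the extension used by estrogen-related receptors, AAGGTCA, was in the windows of 3 of 30 genes (Ogdh, Sdhd and Got1) and in 4.72% of all windows. The palindromic NRF1 motif was in 4 (Dld, Sucla2, Sdha and Sdhd) and in 4.60% of all windows. The ETS motif bound by GABPA, CCGGAAG, was in 8 (Idh3b, Idh3g, Dlst, Sdhb, Sdhd, Sdhaf1, Sdhaf2 and Glud1) and in 8.86% of all windows. The cores of hypoxia response elements, ACGTG and GCGTG, were in 8 and 16 of the 30 genes and in 19.6% and 32.4% of all windows. A gene with several annotated starts was counted once if any of its windows held the motif, and over genes rather than windows the shares were 5.38%, 5.19%, 9.93%, 21.8% and 35.2% in the same order. These counts include genes that did not fall. Of the 25 fallen genes with a window, 3, 4, 7, 6 and 14 held the motifs, in the same order. A match is a description of letters and not a site of binding. The 4 windows below belong to the gene with the largest fall, to the most changed subunit of isocitrate dehydrogenase and to 2 subunits of succinate dehydrogenase that hold the most NRF1 matches or the most kinds of motif. Capitals mark AAGGTCA, the NRF1 motif, CCGGAAG and ACGTG on either strand, and GCGTG was left in lower case.

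Ogdhl (chr14:32321769-32322068, plus strand): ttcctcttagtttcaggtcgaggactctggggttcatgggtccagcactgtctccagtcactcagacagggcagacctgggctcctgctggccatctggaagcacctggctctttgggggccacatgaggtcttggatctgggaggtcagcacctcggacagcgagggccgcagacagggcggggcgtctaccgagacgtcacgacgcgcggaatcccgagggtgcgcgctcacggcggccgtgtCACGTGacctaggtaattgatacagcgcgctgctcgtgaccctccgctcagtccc
Idh3b (chr2:130284402-130284701, minus strand): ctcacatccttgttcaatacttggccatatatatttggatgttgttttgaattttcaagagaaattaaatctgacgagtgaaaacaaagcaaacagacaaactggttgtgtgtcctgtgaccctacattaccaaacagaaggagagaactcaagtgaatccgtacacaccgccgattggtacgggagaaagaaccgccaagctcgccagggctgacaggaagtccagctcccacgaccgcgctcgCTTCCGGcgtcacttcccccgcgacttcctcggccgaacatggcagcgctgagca
Sdha (chr13:74350191-74350490, minus strand): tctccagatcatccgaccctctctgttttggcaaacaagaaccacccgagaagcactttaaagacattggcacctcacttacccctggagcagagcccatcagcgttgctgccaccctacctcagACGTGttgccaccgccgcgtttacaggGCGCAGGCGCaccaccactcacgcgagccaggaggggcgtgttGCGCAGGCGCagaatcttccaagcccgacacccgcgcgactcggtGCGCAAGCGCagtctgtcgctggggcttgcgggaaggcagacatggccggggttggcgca
Sdhd (chr9:50603800-50604099, minus strand): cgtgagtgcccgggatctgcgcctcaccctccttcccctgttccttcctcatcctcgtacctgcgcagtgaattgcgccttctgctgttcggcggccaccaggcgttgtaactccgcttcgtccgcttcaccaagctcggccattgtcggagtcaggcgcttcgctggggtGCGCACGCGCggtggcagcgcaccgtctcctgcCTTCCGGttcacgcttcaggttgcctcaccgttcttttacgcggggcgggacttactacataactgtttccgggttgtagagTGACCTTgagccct

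In Ogdhl the capitals are the palindrome read as ACGTG on both strands, at bases 246 to 251 of the window, ending at the start. In Idh3b they are CCGGAAG on the minus strand of the window. Sdha held the NRF1 motif 3 times, at bases 153 to 162, 196 to 205 and 241 to 250, and ACGTG 1 time. Sdhd held the NRF1 motif at bases 172 to 181, CCGGAAG at 205 to 211 and AAGGTCA at 287 to 293, the last 2 on the minus strand.

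Values per heart are log2 signals relative to the array's 75th percentile and follow the order of replicates 1, 2 and 3. They compare hearts for 1 probe and not the abundance of different genes. Citrate synthase, Cs, which opens the cycle by joining acetyl-CoA to oxaloacetate, had 9.47, 9.12 and 9.51 in control hearts and 7.95, 8.34 and 8.43 in KO-labelled hearts. The groups did not overlap, and the fall was 2.18-fold (log2 difference -1.13 ± 0.18 SE, adjusted p = 0.00575). Fumarase, Fh1, which hydrates fumarate to malate, fell 2.56-fold (-1.36 ± 0.17 SE, adjusted p = 0.00362). Aco1 encodes the cytosolic aconitase that also serves as iron regulatory protein. It was dim, and well above background on 3 control and 2 KO-labelled arrays, at -2.58, -2.69 and -2.76 in control hearts and -2.61, -3.12 and -2.54 in KO-labelled hearts. Aco1 did not pass (log2 difference -0.08, 95% interval -0.51 to 0.35, adjusted p = 0.744), its groups overlapped, and its sign turned with cyclic loess (0.11), spike-in scaling (0.16), array weights (0.13), the deposited value table (0.090) and without KO-labelled replicate 2 (0.10).

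All 5 isocitrate dehydrogenase genes fell. The NAD-dependent enzyme, the regulated step of the cycle, is built from the catalytic subunit Idh3a and the subunits Idh3b and Idh3g. Idh3b had 8.35, 8.05 and 8.23 in control hearts and 6.07, 6.60 and 6.59 in KO-labelled hearts, a fall of 3.46-fold (log2 difference -1.79 ± 0.18 SE, adjusted p = 0.00234). Its controls and KO-labelled hearts were separated by more than the whole range within either group. Idh3a fell less, from 6.59, 6.51 and 6.32 to 5.34, 5.48 and 5.60 (-1.001 ± 0.13 SE, adjusted p = 0.00381), and Idh3g had -1.20. The NADP-dependent mitochondrial enzyme Idh2, a source of NADPH in the matrix, had 9.51, 9.09 and 9.34 in control hearts and 7.41, 8.08 and 8.05 in KO-labelled hearts, with KO-labelled replicate 1 lowest (-1.47 ± 0.22 SE, adjusted p = 0.00493). Its cytosolic counterpart Idh1 was dimmer, at -0.46, -0.85 and -0.50 in control and -1.58, -1.15 and -1.57 in KO-labelled hearts (-0.83 ± 0.18 SE, adjusted p = 0.0134). Idh1 lost its call when control replicate 1 (adjusted p = 0.0549) or control replicate 3 (adjusted p = 0.0542) was left out, and its difference was -0.50 with normexp background correction.

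The 6 genes of the 2-oxoacid dehydrogenase complexes all fell, and they included the largest change among the 33. These complexes join a decarboxylating subunit, an acyltransferase and a shared flavoprotein to turn pyruvate into acetyl-CoA or 2-oxoglutarate into succinyl-CoA. Ogdhl, which encodes a second form of the 2-oxoglutarate decarboxylating subunit, had 0.32, -0.42 and 1.18 in control hearts and -3.18, -2.71 and -3.07 in KO-labelled hearts. It was well above background on all 6 arrays, and the control hearts differed among themselves by more than for any other gene of this complex. The fall was 10.2-fold (log2 difference -3.35 ± 0.39 SE, adjusted p = 0.00297) and the log2 difference shrank to -1.77 with normexp, which raises dim signals. Ogdh, the main form of that subunit, went from 8.82, 8.43 and 8.80 to 7.32, 7.90 and 7.76 (-1.03 ± 0.20 SE, adjusted p = 0.00955), and its other 2 probes had -1.09 and -1.10. The succinyltransferase Dlst of the same complex had -1.19. Dld, the flavoprotein shared by both complexes, had the smallest p of the 33 genes. Its 3 control hearts were nearly equal, at 5.20, 5.12 and 5.18, and its KO-labelled hearts lay at 3.54, 3.95 and 3.84 (-1.39 ± 0.14 SE, adjusted p = 0.00226). On the pyruvate side, the acetyltransferase Dlat had 5.32, 4.77 and 5.08 in control hearts and 2.64, 3.67 and 3.45 in KO-labelled hearts (-1.80 ± 0.29 SE, adjusted p = 0.00598). Pdhx, which tethers the flavoprotein to the pyruvate complex, had 3.65, 3.06 and 3.38 and then 1.53, 2.15 and 1.86 (-1.51 ± 0.22 SE, adjusted p = 0.00452). In both genes KO-labelled replicate 1 was lowest and the groups did not overlap.

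Succinyl-CoA ligase, which makes nucleoside triphosphate directly from succinyl-CoA, fell in all 3 genes. The shared alpha subunit Suclg1 had 7.28, 7.07 and 7.19 in control hearts and 5.59, 5.93 and 5.98 in KO-labelled hearts (log2 difference -1.35 ± 0.15 SE, adjusted p = 0.00255). The ADP-specific beta subunit Sucla2 had 7.74, 7.39 and 7.72 and then 5.98, 6.32 and 6.20 (-1.45 ± 0.16 SE, adjusted p = 0.00249). The GDP-specific beta subunit Suclg2 had 2.38, 2.17 and 2.27 and then 0.22, 0.84 and 0.74 (-1.68 ± 0.19 SE, adjusted p = 0.00266). Each of the 3 genes was thus lower in every KO-labelled heart than in any control heart.

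Succinate dehydrogenase is at once an enzyme of the cycle and complex II of the respiratory chain. Its 4 subunits fell by similar amounts. Sdhc, a membrane anchor, had 7.11, 6.82 and 6.98 in control hearts and 5.41, 5.78 and 5.70 in KO-labelled hearts (log2 difference -1.34 ± 0.15 SE, adjusted p = 0.00268). The iron-sulfur subunit Sdhb had -1.24, the other anchor Sdhd -1.11 and the flavoprotein Sdha -1.05. The assembly factors had the smaller values of this group: Sdhaf2, which helps attach the flavin to Sdha, had -0.70 ± 0.14 SE (adjusted p = 0.01001) and Sdhaf1, which acts in maturation of Sdhb, -0.54 ± 0.16 SE (adjusted p = 0.0355). Sdhaf2 had -0.46 with spike-in scaling. Sdhaf1 did not pass when any single heart other than control replicate 2 was left out (adjusted p = 0.0549 to 0.121), nor with spike-in scaling (adjusted p = 0.117) or without a filter on dim probes (adjusted p = 0.114).

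The malate-aspartate shuttle uses a cytosolic and a mitochondrial form of malate dehydrogenase and of aspartate aminotransferase, and all 4 genes fell. Mitochondrial Mdh2, which also closes the cycle by making oxaloacetate, had 10.37, 9.96 and 10.40 in control hearts and 8.91, 9.36 and 9.34 in KO-labelled hearts (log2 difference -1.04 ± 0.19 SE, adjusted p = 0.00801), and -0.67 with quantile scaling. Cytosolic Mdh1 had 8.12, 7.69 and 8.07 and then 6.60, 6.97 and 6.96 (-1.12 ± 0.17 SE, adjusted p = 0.00528). Cytosolic Got1 had 8.18, 7.84 and 8.29 and then 6.70, 6.73 and 6.82, so that the KO-labelled hearts were closer together than the controls (-1.36 ± 0.15 SE, adjusted p = 0.00260). Mitochondrial Got2 had 7.29, 6.93 and 7.33 and then 5.67, 6.18 and 6.18 (-1.17 ± 0.19 SE, adjusted p = 0.00623). Across the whole list, 3 of the 5 cytosolic enzymes and 24 of the 28 mitochondrial ones fell.

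The genes of anaplerosis and exit did not move together. Of these 6, 1 fell, 1 rose and 4 did not pass, and their median log2 difference was -0.21. Me2, the NAD-dependent mitochondrial malic enzyme that turns malate into pyruvate, was the only one of the 33 to rise. It had -1.30, -1.15 and -1.24 in control hearts and -0.13, -0.32 and -0.14 in KO-labelled hearts, with no overlap. The rise was 2.04-fold (log2 difference 1.03 ± 0.12 SE, adjusted p = 0.00282) and the log2 difference 0.65 with normexp. Me3, the NADP-dependent mitochondrial malic enzyme, went the other way, from 5.49, 5.20 and 5.45 to 3.83, 4.46 and 4.34 (-1.17 ± 0.19 SE, adjusted p = 0.00629). A further Me3 probe that was kept had -1.26, and another was not well above background on any array. The cytosolic malic enzyme Me1 had 5.15, 4.80 and 4.93 and then 4.54, 4.78 and 4.50 (-0.36, 95% interval -0.70 to -0.01, adjusted p = 0.0933). Its 3 probes had -0.32 to -0.51, and the probe at -0.51 passed when each probe was tested on its own (adjusted p = 0.0403). Me1 itself passed with array weights (-0.47, adjusted p = 0.00360). Its difference was smaller with quantile scaling (-0.18, adjusted p = 0.307), cyclic loess (-0.19) and spike-in scaling (-0.11, adjusted p = 0.564). In that test of single probes, in which 23.1% passed lower and 15.1% higher, 34 of the 42 kept probes of the 33 genes passed lower and 1 higher.

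Glud1, the glutamate dehydrogenase that feeds 2-oxoglutarate into the cycle, had 4.76, 4.41 and 4.73 in control hearts and 4.13, 4.31 and 4.32 in KO-labelled hearts. The groups did not overlap, but Glud1 did not pass (log2 difference -0.38, 95% interval -0.72 to -0.04, adjusted p = 0.0740). A further kept Glud1 probe had -0.19 in the limma test of single probes (adjusted p = 0.328). The mean of the gene's probes gave -0.28 (limma, adjusted p = 0.134). Glud1 passed without control replicate 2 (-0.49, adjusted p = 0.0240) and with array weights (-0.41, adjusted p = 0.00280). Its difference was smaller with quantile scaling (-0.21), cyclic loess (-0.22) and spike-in scaling (-0.13, adjusted p = 0.402). Pck2, the mitochondrial phosphoenolpyruvate carboxykinase that drains oxaloacetate, was dim but well above background on all 6 arrays, at -3.30, -3.09 and -3.29 and then -3.09, -3.12 and -2.94 (0.17, 95% interval -0.12 to 0.47, adjusted p = 0.289), and had -0.13 with normexp. With array weights Pck2 passed higher (0.32, adjusted p = 0.00659).

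Pyruvate carboxylase, Pcx, the main anaplerotic enzyme for pyruvate, varied most between KO-labelled hearts. It had 3.48, 3.04 and 3.57 in control hearts and 2.85, 4.10 and 2.94 in KO-labelled hearts. Replicate 2 was thus the highest of all 6 hearts, while KO-labelled replicates 1 and 3 lay below all controls. Pcx did not pass (log2 difference -0.07, 95% interval -0.91 to 0.77, adjusted p = 0.897), and without KO-labelled replicate 2 the difference was -0.47 (adjusted p = 0.112). Without KO-labelled replicate 1 it was 0.16, without KO-labelled replicate 3 it was 0.11 and without control replicate 3 it was 0.037. It also turned positive with quantile scaling (0.047), cyclic loess (0.0725) and spike-in scaling (0.18). Markers of fat cells, which carry much pyruvate carboxylase and malic enzyme, also differed between hearts. The summed signal of the 4 adipocyte markers tested (Adipoq, Plin1, Cidec and Retn) was 0.574, 2.38 and 12.4 in control hearts and 0.706, 43.6 and 0.890 in KO-labelled hearts. It was thus highest in KO-labelled replicate 2, the heart with the highest Pcx and, among KO-labelled hearts, the highest Me1. Me1 in that heart (4.78) lay below every control, and Me1 was highest of all 6 hearts in control replicate 1 (5.15), where the sum was lowest. Among controls Pcx was highest in replicate 3, with the highest control sum, and lowest in replicate 2, whose sum was not the lowest. Of the adipocyte markers 0 passed between the groups in limma, with 0 at an unadjusted p under 0.05. Their part in the values of Pcx and Me1 was not tested. Atrial markers also differed between hearts, and 0 of 4 passed in limma, with 0 at an unadjusted p under 0.05. Myl7, an atrial myosin light chain, had -1.74, 6.79 and 4.88 in control hearts and 4.96, 7.08 and 0.38 in KO-labelled hearts, and Myl4 and Sln were likewise lowest in control replicate 1 and next lowest in KO-labelled replicate 3. Nppa, which stressed ventricles also make, had 7.12, 10.42 and 8.61 and then 10.37, 10.73 and 10.46, and did not follow the other 3 markers in KO-labelled replicate 3.

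**Figure D2:**
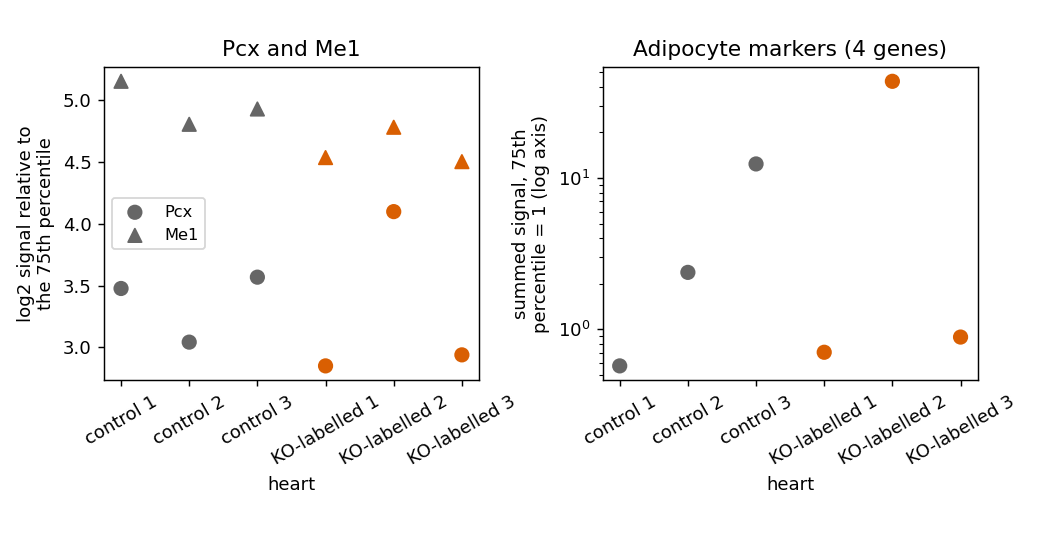
Left, log2 signal of Pcx (circles) and Me1 (triangles) in each heart. Right, summed signal of 4 adipocyte markers in each heart on a log axis, with control hearts in grey and KO-labelled hearts in orange. KO-labelled replicate 2 has the highest Pcx (4.10) and the highest adipocyte sum (43.6).

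Among the 27 fallen genes the same heart was nearly always the lowest of its group, in a way that depended on the scaling. KO-labelled replicate 1 was the lowest of its group for 27 of 27, and control replicate 2 the lowest of the controls for 26 of 27. Relative to the control mean, the median of the 27 genes was -1.51, -1.07 and -1.11 in the KO-labelled hearts and 0.12, -0.22 and 0.070 in the controls. These 2 hearts also had the highest 75th percentile signal of their groups, 235 and 201, by which the arrays were scaled. With the arrays set level on spike-in probes instead, KO-labelled replicate 1 was lowest for 22 of 27 and control replicate 2 for 2 of 27, and the medians in the KO-labelled hearts were -1.16, -0.90 and -0.90. Leaving out hearts changed the call of few of the 33 genes. Of the 33, 25 were lower without control replicate 1 or without control replicate 3, and 28 without control replicate 2, which added Glud1. Over all genes and features, 7820 passed with all hearts, 3987 without control replicate 1, 4122 without control replicate 3 and 5142 without KO-labelled replicate 3.

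**Figure D3:**
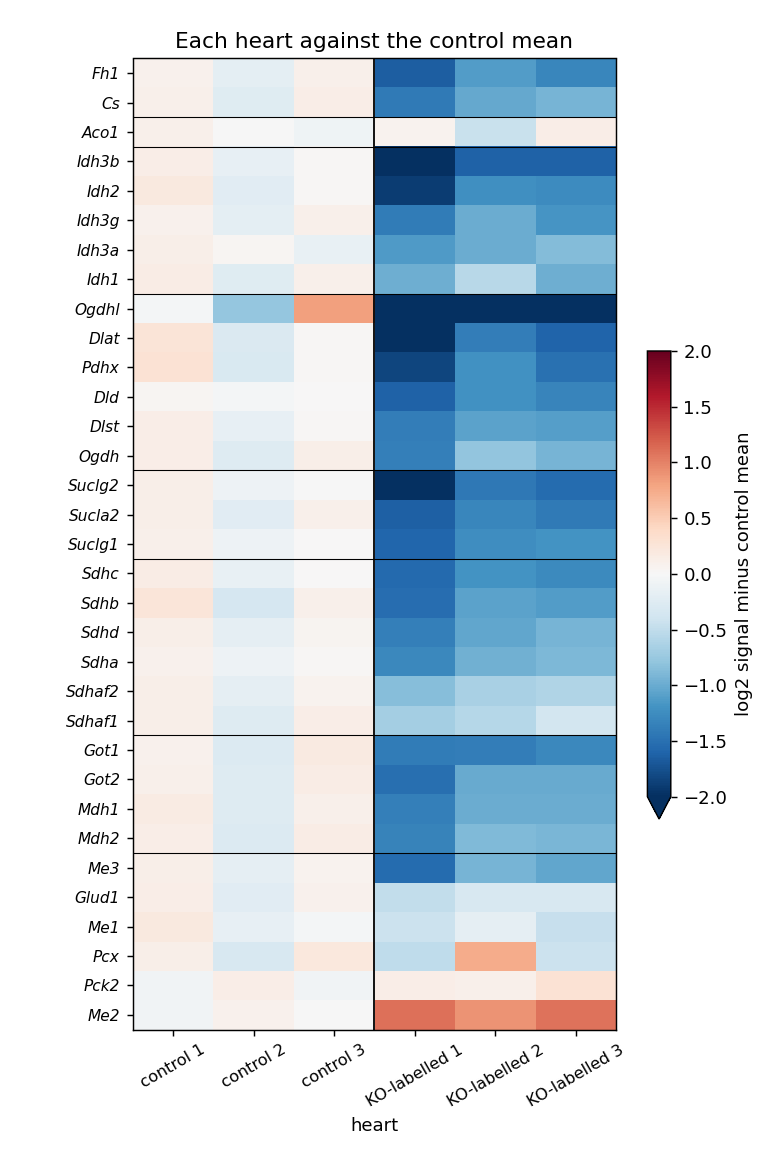
Log2 signal of each of the 33 genes in each heart minus the mean of the control hearts, in the same order of roles, from blue (lower) to red (higher), with values under -2 drawn in the darkest blue. KO-labelled replicate 1 is the lowest of its group for all 27 fallen genes, and of the KO-labelled hearts only replicate 2 lies above the control mean for Pcx.

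Related enzymes were then compared within each array, by the difference of the signals of 2 genes and how it shifted between the groups. A shift of this kind compares 2 changes and not 2 levels. Among 8 pairs, 5 had no overlap between groups, and an exact 2-sided permutation test over 3 against 3 hearts cannot give less than p = 0.1, so no pair could pass. Adjusted over the 8 pairs, the p of those 5 was 0.16. The share of pairs of other genes without overlap was not computed, and single genes and features separated in 33.1% lower and 22.7% higher. Me2 shifted against Me3 by 2.20 on the log2 scale, with each KO-labelled heart between 1.83 and 2.65 above the control mean (exact permutation p = 0.1). Ogdhl shifted against Ogdh by -2.32, with KO-labelled hearts at -2.17, -2.28 and -2.51 and controls at -0.17, -0.53 and 0.70 (exact permutation p = 0.1), and by -0.81 with normexp. Me1 shifted against Me3 by 0.81 and Idh1 against Idh2 by 0.63, both with an exact permutation p of 0.1, and the second was 0.42 with quantile scaling. Suclg2 shifted against Sucla2 by -0.23, by 0.013 with normexp and by -0.37 with quantile scaling. It had -0.13 without KO-labelled replicate 1. Idh2 against Idh3a (-0.46), Got1 against Got2 (-0.18) and Mdh1 against Mdh2 (-0.075) overlapped between groups, with exact permutation p of 0.2, 0.4 and 0.2. The Got1 pair had -0.33 without KO-labelled replicate 1 and -0.086 without KO-labelled replicate 2, and the Mdh1 pair -0.29 with quantile scaling and -0.0057 with normexp.

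**Figure D4:**
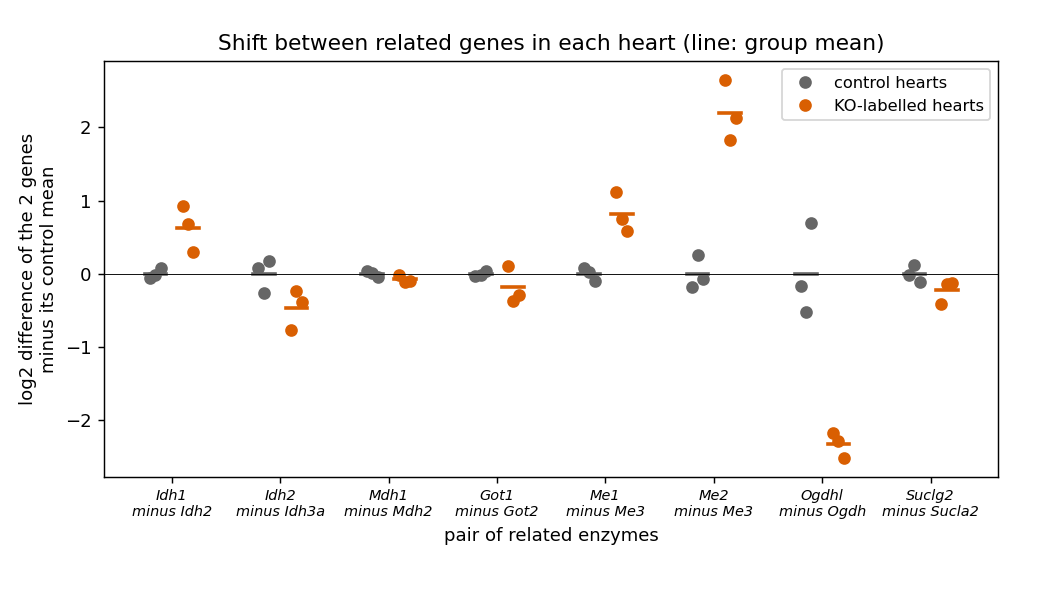
Log2 difference between the 2 genes of each pair in each heart, minus its mean in control hearts, with grey dots for control hearts, orange dots for KO-labelled hearts and lines for group means. Me2 minus Me3 (2.20) and Ogdhl minus Ogdh (-2.32) lie farthest from 0.

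Further genes around the cycle were taken from a list of enzymes, carriers and assembly factors. Of 42 tested, 29 fell, 4 rose and 9 did not pass, against 23.0% and 16.1% of all genes and features, and their median log2 difference was -1.0001. The 29 include Pdpr, Dhtkd1 and Slc25a22, which passed the filter on dim signal only through the control group. They were well above background on 3 control arrays each, and on 1, 1 and 0 KO-labelled arrays. With probes well above background on all arrays, 27 fell and 4 rose. The largest falls were those of the hydroxyacid-oxoacid transhydrogenase Adhfe1, which makes 2-hydroxyglutarate (-3.07 ± 0.41 SE, adjusted p = 0.00386, and -1.88 with normexp), and of the cytosolic alanine aminotransferase Gpt (-2.11 ± 0.23 SE, adjusted p = 0.00265). The pyruvate dehydrogenase phosphatase Pdp2 (-1.73) and the mitochondrial alanine aminotransferase Gpt2 (-1.65) followed. The carriers of the malate-aspartate shuttle fell with its enzymes: the oxoglutarate carrier Slc25a11 had -1.40, and the aspartate-glutamate carriers Slc25a12 and Slc25a13 had -1.12 and -1.34. Pdha1 and Pdhb, the decarboxylating subunits of the pyruvate complex, fell by 1.19 and 1.44 on the log2 scale. These carriers and these subunits were named after their values were seen.

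Among the 4 that rose, Slc1a3, a plasma membrane transporter for glutamate and aspartate, had -2.77, -2.20 and -1.94 in control hearts and 1.26, 0.52 and 1.11 in KO-labelled hearts. The groups lay far apart, with a log2 difference of 3.27 ± 0.28 SE (adjusted p = 0.00166), or 2.11 with normexp. The citrate carrier Slc25a1 (1.48 ± 0.35 SE, adjusted p = 0.0184) had 0.022, 0.49 and 0.37 and then 1.49, 2.58 and 1.26, highest in KO-labelled replicate 2, where the adipocyte markers were also highest. Slc25a1 lost its call without control replicate 1 (adjusted p = 0.0675), without control replicate 3 (adjusted p = 0.0552) or without a filter on dim probes (adjusted p = 0.0535). The glutaminase Gls2 (0.75, adjusted p = 0.0483) and the GABA transaminase Abat (0.44, adjusted p = 0.0365) passed narrowly. Gls2 had 0.16 with normexp. It did not pass under 11 of 18 alternatives (adjusted p up to 0.291) and Abat not under 6 of 18 (adjusted p up to 0.130), which include leaving out control replicate 1 or 3 or KO-labelled replicate 3 for both, KO-labelled replicate 1 for Gls2 and KO-labelled replicate 2 for Abat. The 4 rises became 1 without control replicate 1 or control replicate 3 and 2 without KO-labelled replicate 3.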

How the data were processed

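Spot brightness in the deposited scanner files is a linear intensity, extracted with Agilent Feature Extraction 11.0.1.1 according to their headers. Flags in the same deposited files, other columns of that software, mark outlying spots and spots well above background. The authors' value table is in log2, R 3.1.3 is among the tools in the submitters' processing notes, and how it was normalized is not stated here. It served only as an alternative. The labels name both a column kit for hearts and a blood RNA kit with globin removal.

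The processed signal was converted to log2, outlying spots left out, spots of a probe averaged and each array's 75th percentile subtracted. Of 55681 probes 55608 were kept, and 26551 of those were named by RefSeq accession (GRCm38.p6 gene table). Tested were the probes that passed the background flag on all arrays of at least 1 group, with the probe of highest mean for each gene. Tests, 2-sided, used limma 3.58.1 (R 4.3.3) with Benjamini-Hochberg adjustment at 0.05 over all genes and features. They were also run on simulated arrays, whose noise was drawn for each gene on its own. Those arrays lacked shifts shared by the genes of a heart, so that run checks the code and not the calls. The genes, lists and pairs were chosen with earlier results of these data known. All 33 genes are named. Values per heart are given for those with one of the 8 smallest p or 8 largest changes, the riser, those that did not pass and the pairs, with Cs added after its values were seen. Of the further genes, the 4 largest falls and the 4 rises are named. Alternatives were 4 other scalings, normexp (offset 50), the value table, 2 filters, the mean of probes, 2 variance models, a replicate block, leaving out each heart and a threshold of 0.01. Normexp used median spot signals, and proteins were not compared. Other marker lists tested held smooth muscle and pericyte (2 of 7 rose, 3 fell), lymphocyte (1 of 2 rose), erythroid (1 of 5 fell) and skeletal muscle genes (2 of 3 rose, 1 fell).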

Additional observations from a re-analysis of the deposited data

How the results depend on the processing

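Of the 28 genes of the list that passed, 26 passed in the same direction under all 18 alternatives run on them, and Idh1 and Sdhaf1 did not. The threshold of 0.01 was not among these 18, and at that threshold Sdhaf2 (adjusted p = 0.01001 in limma) also lost its call. The count of genes that fell was 24 to 29 over all alternatives, without any that moved it by more than 1.5 times. The count that rose was 2 with array weights, which added Pck2. The median log2 difference of the list was -0.97 after cyclic loess and -0.92 when scaled on spike-in probes. These 2 scalings moved the median of all genes and features to 0.024 and 0.13 and the share of calls that were higher from 41.1% to 55.3% and 60.4%. The count over all genes and features was 4345 without a filter on dim probes, 13709 with array weights, 3093 at an adjusted p of 0.01 and 3987 to 8673 leaving out single hearts. Among the further genes, the 4 rises were 1 without that filter and at 0.01, and 1 to 4 leaving out single hearts. Values that changed sign were those of genes that did not pass and of 1 pair. Pcx had 0.047 with quantile scaling, 0.0725 with cyclic loess, 0.18 with spike-in scaling and -0.47 to 0.16 leaving out single hearts. Aco1 had 0.11 with cyclic loess, 0.16 with spike-in scaling, 0.090 in the deposited table, 0.13 with array weights and -0.19 to 0.10 leaving out single hearts. Pck2 had -0.13 with normexp, and Suclg2 against Sucla2 had 0.013. The cause of these changes was not tested.

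The replicate numbers showed no sign of pairing the hearts. Deviations of same-numbered hearts correlated at -0.15, -0.13 and -0.10, and 0 of 3 KO-labelled hearts correlated best with its own number. A check over 3 hearts per group cannot exclude that they were paired. With the replicate block, 4854 genes and features passed, 25 of the list fell, 1 rose, and of the further genes 2 rose, with Idh1 (adjusted p = 0.0566) and Sdhaf1 (adjusted p = 0.0663) not past the threshold. Dim probes (Aco1, Pck2, Ogdhl, Idh1, Me2) are limited by signal near background.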
